A study of Mus musculus with 10 samples.

Results

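The genes of caveolae and of the membrane scaffold described here were measured in CD8+ T cells that had shared a dish with 4T1 tumor cells and that had or had not received acetate. They were the caveolins Cav1 and Cav2, the cavins Cavin1, Cavin2 and Cavin3, the caveolar neck ATPase Ehd2 and the annexins Anxa1, Anxa2 and Anxa3, which are 9 of the 57825 genes listed. Each was taken by its gene name, and each name was listed once, as a protein-coding gene. The names had been chosen from the same acetate contrast in these samples, so their levels and differences are given as a description, with no p-value.

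CD8+ T cells from spleens of female Balb/c mice, a common inbred strain, were activated on plate-bound anti-CD3 with IL-2 and anti-CD28 for 12 h, kept for 24 h without or with 5 mM sodium acetate (NaAc) and then co-cultured for 48 h with 4T1 cells, a mammary carcinoma line of the same strain. The T cells were purified before RNA isolation, and the labels give day 3. Both groups, CD8+4T1 and CD8+4T1+NaAc, had been co-cultured with 4T1 cells, and each held 5 samples. T cells kept alone and 4T1 cells kept alone were not analysed here. The labels do not say whether the 5 samples of a group came from separate cultures or animals, so p-values measure the spread between these samples, which may be technical.

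Caveolae are flask-shaped pits of the plasma membrane. Caveolin oligomers sit in the inner leaflet of the pit, a coat of cavins stabilises its curve, and EHD2 at the neck holds it at the cell surface. Caveolae are plentiful in endothelial, fat, muscle and many epithelial and stromal cells and sparse in lymphocytes. Annexins are cytosolic proteins that bind acidic phospholipids when calcium rises. They link membranes to actin, help to mend torn plasma membrane and, in the case of annexin A1, take part in ending inflammation.

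Levels were FPKM, in which a gene's fragments are divided by its length and by the sample's total, so that levels can be compared between genes. That total was 16306447 to 17443395 fragments in the CD8+4T1 samples and 16503701 to 18853726 in the CD8+4T1+NaAc samples. The listed genes held 95.5% to 97.9% of it in CD8+4T1 and 89.8% to 92.1% in CD8+4T1+NaAc, and their FPKM summed to 310965 to 335151 and 282995 to 295928, so the groups were apart in both. Replicate 1 of each group stood apart. In CD8+4T1 it had 22291 genes above 0, against 23786 to 24054 in the other samples, and in CD8+4T1+NaAc it had 20233, against 24681 to 25088. Values without replicate 1 of both groups are therefore given for the genes that the results turn on. Differences were fitted with limma on log2(FPKM + 0.1) for the 15710 genes whose mean reached 0.5 FPKM, and a gene was called when its p-value, adjusted by the Benjamini-Hochberg method, was under 0.05. On this scale the change of a gene at a low level comes out too small.

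The promoters of 4 of the genes are printed here because they form the contrasts that the values below turn on. Cav1 and Cav2 are neighbours, listed 17219 bases apart on the same strand of chromosome 6, and only Cav2 had a higher measured level with NaAc. Cav1 rested on 14 fragments without and 13 with NaAc, summed over the group. A ratio of Cav1 between 0.390 and 2.07 could not be told from no difference. Anxa1 and Anxa2 are annexins whose levels lay on opposite sides of the control. The sequences are the 250 bases before the start in RefSeq, build GRCm38.p6, at chr6:17306085-17306334 (plus strand) for Cav1, chr6:17280935-17281184 (plus strand) for Cav2, chr19:20390672-20390921 (minus strand) for Anxa1 and chr9:69453433-69453682 (plus strand) for Anxa2. The positions that the deposited table lists for the genes are given with each gene below. For Cav1 and Cav2 the listed starts, 17306334 and 17281184, are also the last bases of these windows. For Anxa1 and Anxa2 the listed positions are not those of this build. The coordinates of their promoters and genes cannot be set side by side. Capitals mark a match to the AP-1 motif TGANTCA or the TEAD motif GGAATG on either strand. Cav1 has a second RefSeq start, whose window at chr6:17307390-17307639 is not printed and held no match.

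Cav1: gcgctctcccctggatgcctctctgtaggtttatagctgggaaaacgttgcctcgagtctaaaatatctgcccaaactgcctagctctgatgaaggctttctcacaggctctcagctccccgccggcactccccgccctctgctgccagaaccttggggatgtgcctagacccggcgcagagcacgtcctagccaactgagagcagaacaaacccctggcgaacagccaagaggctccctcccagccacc

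Cav2: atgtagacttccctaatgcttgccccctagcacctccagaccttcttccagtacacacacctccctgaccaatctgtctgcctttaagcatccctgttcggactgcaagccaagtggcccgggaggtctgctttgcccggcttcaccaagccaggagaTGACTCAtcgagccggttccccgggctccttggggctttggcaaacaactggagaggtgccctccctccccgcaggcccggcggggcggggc

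Anxa1: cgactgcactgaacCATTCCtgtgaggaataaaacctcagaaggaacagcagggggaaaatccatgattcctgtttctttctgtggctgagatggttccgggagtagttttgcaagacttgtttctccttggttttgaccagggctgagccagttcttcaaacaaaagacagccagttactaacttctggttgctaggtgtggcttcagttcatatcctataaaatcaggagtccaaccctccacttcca

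Anxa2: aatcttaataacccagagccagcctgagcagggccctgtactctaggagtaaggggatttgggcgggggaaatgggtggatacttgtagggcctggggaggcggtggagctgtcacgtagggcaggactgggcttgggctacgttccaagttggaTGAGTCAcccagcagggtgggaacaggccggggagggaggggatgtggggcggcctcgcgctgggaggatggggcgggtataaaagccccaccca

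The AP-1 letters, bound by dimers of Fos and Jun proteins, began 92 bases before the start of Cav2 and 95 bases before that of Anxa2. They occurred in 6.75% of 32851 RefSeq windows of the same length. The TEAD letters, bound by the partners of the YAP co-activator, were found on the reverse strand 236 bases before the start of Anxa1, and 12.6% of windows held them. They also lay in both windows of Cavin1, 247 and 249 bases before the 2 starts. The CArG motif, bound by serum response factor, was in 1.47% of windows and in none of the 9 windows found for 7 of the 9 genes. Cav1, Cavin2 and Ehd2 held none of the 3 motifs. The motif of Cav2 and that of Anxa2 sat in genes whose levels lay on opposite sides of the control. A match is a description of letters and not of binding.

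Most of the caveolar genes were higher with NaAc, and Cav1 was not. Cav2, Cavin1, Cavin2 and Ehd2 had means between 2.23 and 4.29 times those of CD8+4T1, and no sample of one group reached the range of the other. Cavin3 had a mean 1.85 times as high with overlapping groups. Cav1, the caveolin without which most cells form no caveolae, rested on 0 to 6 fragments in every sample of both groups.

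Cav1 (ENSMUSG00000007655) is listed on chromosome 6 from 17306334 to 17341451. In CD8+4T1 it had 0, 0.0666, 0.0178, 0.0529 and 0.106 FPKM in replicates 1 to 5, and in CD8+4T1+NaAc 0, 0.0462, 0.0704, 0.0858 and 0.0175 FPKM. The groups overlapped, with only CD8+4T1 replicate 5 above every NaAc sample, and replicate 1 had no fragment in either group. Summed over the group, Cav1 had 14 fragments without and 13 with NaAc, a ratio of 0.901 with an exact 95% interval of 0.390 to 2.07. This interval covers counting error alone, and Cav1 did not pass the filter on low values. A difference within that interval was not detectable at this depth.

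Cav2 (ENSMUSG00000000058), which in most cells reaches the surface in complexes with caveolin 1, is listed on chromosome 6 from 17281184 to 17289114. It had 0.341, 0.533, 0.386, 0.601 and 0.509 FPKM in CD8+4T1 and 2.12, 2.64, 1.69, 2.04 and 1.68 FPKM in CD8+4T1+NaAc. Every NaAc sample lay well above every control sample. The fragments behind these values were 19 to 33 without and 93 to 166 with NaAc. The mean went from 0.474 ± 0.107 to 2.03 ± 0.394 FPKM (SD, n = 5 each), and the fitted log2 fold change was 1.90 (SE 0.19). Cav2 was therefore the caveolin with more fragments in both groups, at a level per length above that of Cav1 in each of the 10 samples. An antisense gene, Gm15581, is listed across Cav1 and Cav2 and had at most 1 fragment in a sample.

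Cavin1 (ENSMUSG00000004044, chromosome 11, 100847559 to 100861713), the cavin that every caveolar coat contains, was by far the most abundant of the caveolar genes. It had 10.6, 12.7, 13.0, 14.1 and 13.0 FPKM in CD8+4T1 and 30.5, 30.2, 28.7, 26.4 and 25.6 FPKM in CD8+4T1+NaAc. The groups were far apart and each was tight, the highest NaAc sample being 1.19 times the lowest. The mean was 12.7 ± 1.29 without and 28.3 ± 2.21 FPKM with NaAc (SD, n = 5 each), and the fitted log2 fold change was 1.16 (SE 0.08). Cavin1 made up 71.7% to 77.0% of the summed FPKM of the 6 caveolar genes in CD8+4T1 and 66.9% to 78.3% in CD8+4T1+NaAc, ranges that overlap.

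Cavin2 (ENSMUSG00000045954, chromosome 1, 51328285 to 51342119), a cavin that binds phosphatidylserine and helps to shape the pit, was close to the limit of detection. It had 0.196, 0.188, 0.0401, 0.179 and 0.0992 FPKM in CD8+4T1 and 0.402, 0.347, 0.655, 0.677 and 0.374 FPKM in CD8+4T1+NaAc. The groups did not overlap, but they rested on 2 to 10 and 19 to 35 fragments. The mean was 0.140 ± 0.0681 without and 0.491 ± 0.161 FPKM with NaAc (SD, n = 5 each). Cavin2 did not pass the filter on low values, and a fit without that filter gave a log2 fold change of 1.31 (SE 0.30).

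Cavin3 (ENSMUSG00000037060, chromosome 7, 105129290 to 105131507), a cavin that binds protein kinase C delta, had the smallest log2 fold change among the genes that were higher. It had 0.900, 1.69, 1.07, 1.75 and 1.49 FPKM in CD8+4T1 and 1.62, 3.57, 2.66, 2.85 and 2.10 FPKM in CD8+4T1+NaAc. NaAc replicate 1 fell inside the control range, and the other 4 NaAc samples lay above it. The mean was 1.38 ± 0.379 without and 2.56 ± 0.744 FPKM with NaAc (SD, n = 5 each), on 25 to 49 and 46 to 112 fragments, and the log2 fold change was 0.84 (SE 0.24).

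Ehd2 (ENSMUSG00000074364, chromosome 7, 15680883 to 15701492), the ATPase of the caveolar neck, had 2.49, 2.00, 2.36, 2.89 and 2.90 FPKM in CD8+4T1 and 4.32, 8.34, 5.92, 6.99 and 4.94 FPKM in CD8+4T1+NaAc. The groups were apart, and the NaAc samples were spread more widely than the controls. The mean was 2.53 ± 0.379 without and 6.10 ± 1.61 FPKM with NaAc (SD, n = 5 each), and the log2 fold change was 1.21 (SE 0.17).

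**Figure D1:**
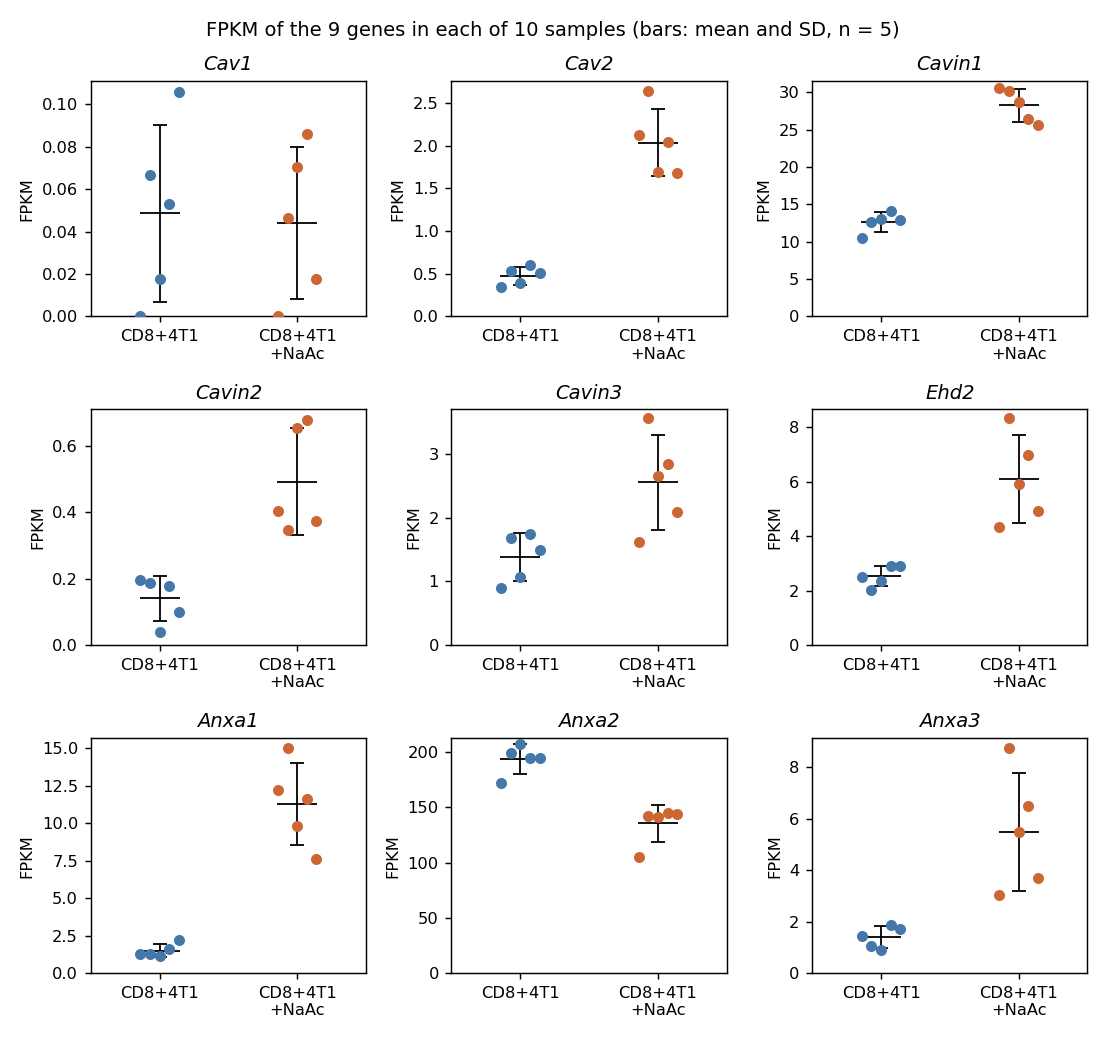
FPKM of the 9 genes (vertical axis, linear, from 0) in the 5 CD8+4T1 and 5 CD8+4T1+NaAc samples. Points are samples in the order of replicates 1 to 5, and bars give the mean and SD. The groups overlap for Cav1 and Cavin3 and lie apart for the other 7 genes, with Anxa2 the one that is lower with NaAc.

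The 3 annexins parted in direction. Anxa1 and Anxa3, which were low in CD8+4T1, were several times higher with NaAc, whereas Anxa2, one of the most abundant messages of these samples, was lower. Anxa1 had the largest log2 fold change of the 9 genes, though in FPKM the differences of Anxa2 (-58.0) and Cavin1 (15.6) were larger than its own (9.75).

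Anxa1 (ENSMUSG00000024659, chromosome 19, 20350792 to 20368308) encodes annexin A1, the glucocorticoid-induced protein that acts on formyl peptide receptors. It had 1.27, 1.30, 1.18, 1.63 and 2.23 FPKM in CD8+4T1 and 12.3, 15.0, 9.82, 11.6 and 7.65 FPKM in CD8+4T1+NaAc. The lowest NaAc sample was still above the highest control, and replicate 5 was both that lowest sample and that highest control. The mean went from 1.52 ± 0.429 to 11.3 ± 2.75 FPKM (SD, n = 5 each), 7.41 times as high, with a log2 fold change of 2.81 (SE 0.20). By mean FPKM it went from rank 11511 to rank 4597 of the 57825 genes.

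Anxa3 (ENSMUSG00000029484, chromosome 5, 96941198 to 96993825), an annexin found in neutrophils and in many epithelia, had 1.45, 1.05, 0.909, 1.90 and 1.71 FPKM in CD8+4T1 and 3.03, 8.75, 5.47, 6.51 and 3.70 FPKM in CD8+4T1+NaAc. The groups were apart, and of the 8 genes other than Cav1 it varied most within the NaAc group, its highest sample being 2.88 times its lowest. The mean was 1.40 ± 0.421 without and 5.49 ± 2.29 FPKM with NaAc (SD, n = 5 each), a log2 fold change of 1.84 (SE 0.29).

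Anxa2 (ENSMUSG00000032231, chromosome 9, 69360902 to 69399077), which with S100a10 forms a complex at the inner face of the plasma membrane, had 171.8, 199.6, 207.7, 194.9 and 194.4 FPKM in CD8+4T1 and 105.5, 142.1, 141.7, 144.7 and 144.5 FPKM in CD8+4T1+NaAc. Every NaAc sample lay below every control, and replicate 1 was the lowest of its group in both. The mean was 193.7 ± 13.3 without and 135.7 ± 16.9 FPKM with NaAc (SD, n = 5 each), and the log2 fold change was -0.52 (SE 0.09), or -0.43 (SE 0.05) without NaAc replicate 1. Anxa2 ranked 210 among all genes by mean FPKM in CD8+4T1 and 253 in CD8+4T1+NaAc. The antisense gene Gm16144 and Mir3109 lie within Anxa2 and had at most 42 and 5 fragments, against 6731 to 12987 for Anxa2, and whether the counting used the strand is not given in the sources used here. Of the summed FPKM of the 3 annexins, Anxa2 held 98.0% to 99.0% without and 85.7% to 92.7% with NaAc.

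Among the 9 genes the order of levels was led by Anxa2 and then Cavin1 in both groups. In CD8+4T1 the next were Ehd2, Anxa1, Anxa3 and Cavin3, whose neighbouring ranges overlapped. Cav2 followed below them, and Cavin2 and Cav1, which overlapped with each other, came last. With NaAc the order after Cavin1 was Anxa1, Ehd2, Anxa3, Cavin3 and Cav2, with each range overlapping the next. Cavin2 and then Cav1 came last and did not overlap. Anxa1 thus moved ahead of Ehd2, and the FPKM of Cavin1 was 23.5 to 33.6 times that of Cav2 without and 11.4 to 17.0 times with NaAc.

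Of the 9 genes, 7 passed the filter and all 7 were called, 6 higher and 1 lower, in a comparison that called 36.5% of all genes tested, 17.6% higher and 19.0% lower. Nothing is read from this count, since the genes were chosen from this contrast, Cav1 and Cavin2 are not in it, and Cav2 passed the filter only through the NaAc samples. Of the 7, 5 had a log2 fold change over 1, against 4.87% of all genes called higher past that size and 1.60% called lower. The groups did not overlap for 6 of these 7, a property of 26.4% of all genes tested, 13.1% higher and 13.3% lower with NaAc, nor for Cavin2, which was not tested. The median log2 fold change of the 7 was 1.21, and that of all genes tested was -0.02. When every sample was rescaled to the same total FPKM, the median of all genes moved to 0.16 and the calls over all genes went from 2764 higher and 2978 lower to 4918 higher and 1386 lower. Limma's voom on the recovered fragments gave 3990 higher and 2100 lower. Anxa2 was at -0.34 and Cavin1 at 1.33 after the rescaling, and none of the 7 log2 fold changes changed sign under either.

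Without replicate 1 of both groups the log2 fold change was 1.79 for Cav2, 1.07 for Cavin1, 0.85 for Cavin3, 1.32 for Ehd2, 2.72 for Anxa1, -0.47 for Anxa2 and 2.05 for Anxa3, so each kept its direction. Over all alternatives the values ran from 1.04 to 2.19 for Cav2, from 1.07 to 1.33 for Cavin1, from 0.57 to 1.01 for Cavin3 and from 0.99 to 1.38 for Ehd2. Those of the annexins ran from 2.27 to 2.99 for Anxa1, from -0.56 to -0.34 for Anxa2 and from 1.38 to 2.05 for Anxa3.

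Genes that work with caveolae were examined next, as a list of 14. This list and those that follow were drawn up with earlier results of these data known, so their p-values describe single genes and are not independent evidence about a list. Of these 14 genes 7 rose, 1 fell, 4 were not called and 2 were under the filter on low values and not tested. The median log2 fold change of the 12 tested was 0.42, against -0.02 for all genes tested. The largest changes on the log2 scale were those of Dnm1 and Pacsin3, both with a log2 fold change over 1. Dnm1, dynamin 1, a GTPase that pinches off vesicles at the membrane, had 1.29 to 1.90 FPKM without and 3.33 to 3.97 FPKM with NaAc, and its log2 fold change was 1.14 (SE 0.12, limma adjusted p = 6.67e-05, 2.04e-06 to 0.00102 over the alternatives). Pacsin3, an F-BAR protein of caveolar necks, had 0.729 to 1.09 FPKM without and 1.45 to 2.32 FPKM with NaAc, a log2 fold change of 1.12 (SE 0.16, limma adjusted p = 0.000404, 4.49e-05 to 0.00478 over the alternatives). Neither gene's groups overlapped.

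Src, the kinase that phosphorylates caveolin 1, rose from 2.27 ± 0.494 to 4.59 ± 1.12 FPKM (SD, n = 5; log2 fold change 0.98, SE 0.19, limma adjusted p = 0.00243, 0.000299 to 0.0079 over the alternatives). Pacsin1 rose by 0.75 on the log2 scale (SE 0.11), Ehd3 by 0.52 (SE 0.06), Ehd1 by 0.31 (SE 0.05) and Abl1 by 0.25 (SE 0.07). Ehd1 and Ehd3 are relatives of Ehd2 that act on recycling endosomes, and Abl1 is a tyrosine kinase that acts on stress fibres. Pacsin2, the most widely expressed pacsin, was the gene that fell (log2 fold change -0.26, SE 0.06, limma adjusted p = 0.0049), and it was no longer called after rescaling to the same total or with voom (adjusted p up to 0.308 over the alternatives). Ehd4, Dnm2, Dnm3 and Ehbp1 were not called, at log2 fold changes of 0.13, 0.05, -0.47 and 0.70. All 4 were called in some alternatives, Ehbp1 in 6, Dnm3 in 3 and Ehd4 and Dnm2 in 2 each, and with rescaling to the same total or with voom 10 of the list rose in place of 7. Without replicate 1 of both groups the log2 fold change was 1.16 for Dnm1, 1.05 for Pacsin3 and 1.01 for Src, the 8 calls held and Ehbp1 was added. Cav3, the caveolin of muscle, was listed at 0 in all samples, and Cavin4, the cavin of muscle, had at most 7 fragments.

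Of the other 9 annexins 3 rose, 3 were not called and 3 were not tested, with a median log2 fold change of 0.26. The count that fell was 0 with limma, 0 with voom and 0 at an unadjusted p under 0.05. Anxa6, an annexin abundant in lymphocytes, rose from 97.9 ± 3.67 to 145.4 ± 10.2 FPKM (SD, n = 5; log2 fold change 0.57, SE 0.06, limma adjusted p = 5.29e-05, 4.14e-07 to 0.00085 over the alternatives). With NaAc its level per length thus reached the range of Anxa2, at a mean of 135.7 FPKM, where it had been lower than Anxa2 in every CD8+4T1 sample. Anxa4 rose from 2.25 ± 0.316 to 3.64 ± 0.522 FPKM (log2 fold change 0.67, SE 0.13, limma adjusted p = 0.00261) and Anxa11 from 13.1 ± 0.188 to 16.9 ± 1.22 FPKM (0.36, SE 0.05, limma adjusted p = 0.000429). Over the alternatives the adjusted p was 0.000255 to 0.0129 for Anxa4 and 3.83e-05 to 0.00443 for Anxa11. Without replicate 1 of both groups the log2 fold changes of Anxa6, Anxa4 and Anxa11 were 0.59, 0.54 and 0.36, all called.

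Anxa5, Anxa7 and Anxa9 were not called, at log2 fold changes of 0.10, 0.15 and -0.06. Anxa5 was called after rescaling to the same total. Anxa7 was called without NaAc replicate 1 and without replicate 1 of both groups, at 0.28 in the latter. Anxa8 was under the filter, Anxa13 had at most 1 fragment and Anxa10 was listed at 0. Anxa2 was thus the 1 annexin of the 9 tested in the family that was called lower, and that gene had been chosen from this contrast.

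**Figure D2:**
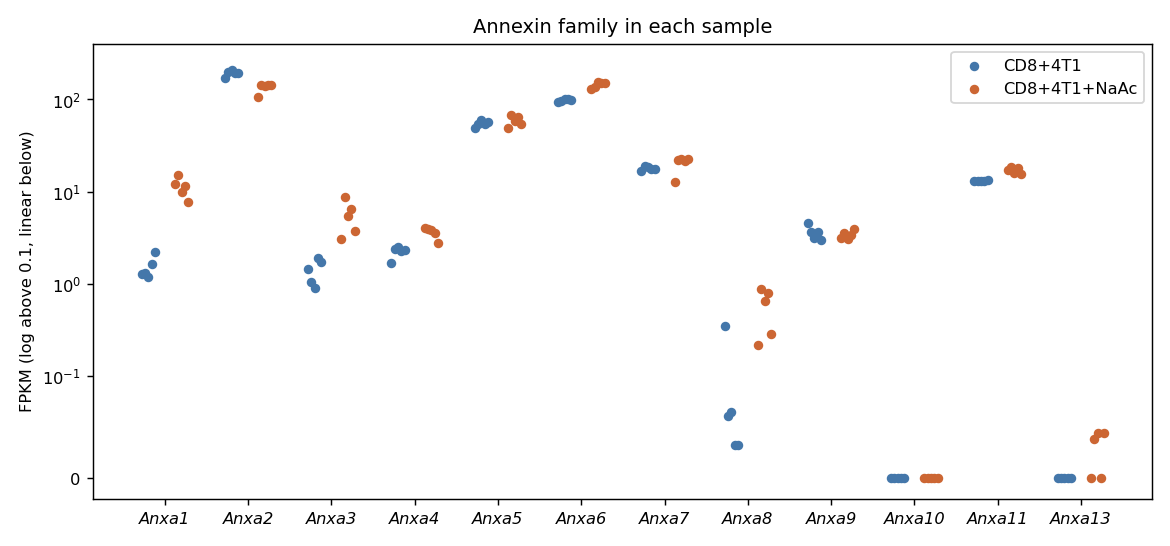
FPKM of the 12 annexin genes in each sample (vertical axis logarithmic above 0.1 FPKM and linear below, points are samples, 5 per group). Anxa2 and Anxa6 stand above all others, Anxa2 is lower with NaAc, and Anxa1 and Anxa3 go from between 0.909 and 2.23 to between 3.03 and 15.0 FPKM.

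The partners of the annexins also parted in direction. Of 13 genes 4 rose, 2 fell, 2 were not called and 5 were not tested. S100a10, the S100 protein that binds Anxa2, fell from 403.8 ± 52.3 to 272.0 ± 24.5 FPKM (SD, n = 5; log2 fold change -0.56, SE 0.10, limma adjusted p = 0.0013, 0.000136 to 0.00428 over the alternatives), with no overlap between groups. Plaur, the urokinase receptor, fell from 57.7 ± 2.84 to 34.2 ± 3.57 FPKM (-0.76, SE 0.07, limma adjusted p = 4.21e-05, 4.97e-06 to 0.00139 over the alternatives). Anxa2, chosen from this contrast, was thus lower with NaAc along with these 2 partners. S100a11, more abundant than both at means of 484.3 without and 427.0 FPKM with NaAc, was not called.

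The other called partners were higher with NaAc. Plat, the tissue plasminogen activator, which the complex of Anxa2 and S100a10 can bind, had 0.245 ± 0.105 without and 1.47 ± 0.518 FPKM with NaAc, a log2 fold change of 2.17 (SE 0.31). It passed the filter only through the NaAc samples, so its call was favoured by the filter. Plau, urokinase, rose from 1.89 ± 0.316 to 5.36 ± 1.91 FPKM (1.40, SE 0.23, limma adjusted p = 0.000818, 0.000189 to 0.00564 over the alternatives). S100a6, which binds several annexins, rose from 13.6 ± 2.96 to 35.8 ± 11.2 FPKM (1.36, SE 0.21, limma adjusted p = 0.000717, 0.000124 to 0.0034 over the alternatives). Ahnak2, a giant scaffold protein, rose by 0.80 on the log2 scale (SE 0.20), while Ahnak, its relative and a partner of the Anxa2 complex, and S100a11, which binds Anxa1, were not called at -0.02 and -0.20. S100a11 was called lower without NaAc replicate 1 and without replicate 1 of both groups. The formyl peptide receptors Fpr1 and Fpr2, on which Anxa1 acts, had at most 5 fragments, as did S100a4, and Fpr3 and Plg (plasminogen) were listed at 0. Leaving out replicate 1 of both groups gave log2 fold changes of -0.58 for S100a10, -0.81 for Plaur, 2.42 for Plat, 1.59 for Plau and 1.29 for S100a6, all called.

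**Figure D3:**
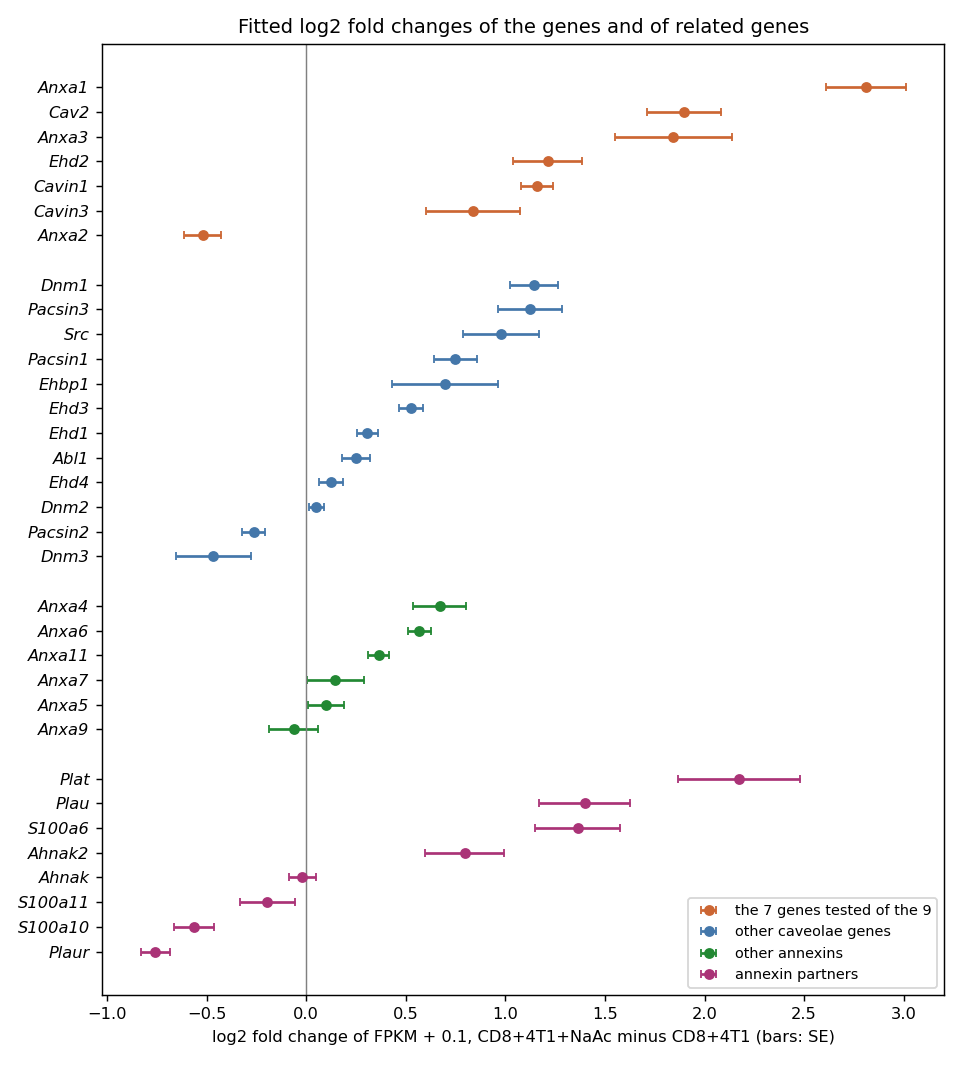
Fitted log2 fold change of FPKM + 0.1 (horizontal axis, CD8+4T1+NaAc minus CD8+4T1, bars give the SE) for the 7 of the 9 genes that were tested and for the tested genes of the lists of other caveolae genes, other annexins and annexin partners. Anxa1 is highest at 2.81, Plat leads the partners at 2.17, and Plaur at -0.76 is lowest.

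Other scaffold proteins of the membrane did not move together. Of 18 genes 4 rose, 4 fell, 6 were not called and 4 were not tested, and the median log2 fold change was 0.07. After rescaling to the same total 8 rose and 1 fell, and with voom 6 rose and 2 fell. Myof, myoferlin, a ferlin of membrane repair, rose from 0.540 ± 0.177 to 4.11 ± 1.27 FPKM (SD, n = 5; log2 fold change 2.71, SE 0.24, limma adjusted p = 3.21e-05, 2.81e-06 to 0.00103 over the alternatives). Stom, stomatin, an integral protein of cholesterol-rich membrane, rose from 2.64 ± 0.695 to 11.8 ± 2.89 FPKM (2.12, SE 0.20, limma adjusted p = 4.07e-05, 4.01e-06 to 0.00071 over the alternatives). With replicate 1 of both groups left out they were 2.64 and 2.02, both called.

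The remaining changes of the list were small. Ezr, ezrin, rose by 0.20, and Stoml1 by 0.14 with a call that was lost in 13 of 22 alternatives. Stoml2, a stomatin-like protein of mitochondria, fell by 0.45 (limma adjusted p = 0.000212), and the falls of Phb2 (-0.26), Rdx (-0.23) and Slc9a3r1 (-0.17) were each lost after rescaling to the same total. Flot1 and Flot2, the flotillins of lipid rafts, were not called at 0.08 and 0.09, and both were called higher after rescaling to the same total and with voom.

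Among epithelial markers 5 rose in the same samples in which most of the caveolar genes, Anxa1 and Anxa3 were higher. The summed FPKM of 18 epithelial markers was 14.4, 15.7, 14.0, 23.8 and 23.1 in CD8+4T1 and 78.3, 178.1, 106.6, 133.0 and 69.2 in CD8+4T1+NaAc, the mean sum being 6.22 times as high. Krt8, Krt18 and Lcn2 made up most of it, with a mean sum of 10.8 without and 100.8 FPKM with NaAc. The other 15 markers together had 7.38 and 12.2 FPKM, 1.65 times as high, with no overlap between groups. Of these markers 9 were tested. Those that rose were Krt7, Krt8, Krt18, Cldn3 and Lcn2, while Krt17 fell and 3 were not called. Of the 3, Dsp was called higher in 3 alternatives, after rescaling to the same total, with voom and with the replicate number as a block. Krt7 and Cldn3 passed the filter on low values only through the NaAc samples, which favours a call. Without replicate 1 of both groups the same 5 rose, with log2 fold changes from 2.87 to 3.30, and Krt17 fell by 0.60. The keratin partners Krt8 and Krt18 had 1.77 to 5.66 and 1.87 to 4.85 FPKM without NaAc and 20.0 to 53.5 and 15.0 to 45.8 FPKM with it. Cdh1, E-cadherin, was under the filter at 0.0125 to 0.0663 and 0.355 to 0.928 FPKM. Epcam had means of 0.519 and 0.699 FPKM and was not called, Krt5 had at most 1 fragment and Krt6a was at 0 in every sample.

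T cell markers were abundant in every sample. Their summed FPKM was 1416 to 1626 in CD8+4T1 and 1120 to 1565 in CD8+4T1+NaAc. Of 15 tested, 1 rose (Zap70) and 7 fell, with a median log2 fold change of -0.15, and after rescaling to the same total 5 rose and 5 fell. The fall of Cd2, an adhesion receptor of T cells, was lost in 14 of 22 alternatives. The rise of Zap70, a kinase of the T cell receptor, was lost without CD8+4T1 replicate 2 and without NaAc replicate 3, 4 or 5, and without NaAc replicate 1 there were 3 T cell markers that rose. Cd8a, the chain that defines CD8+ T cells, had 78.6 ± 2.34 without and 76.5 ± 4.37 FPKM with NaAc, and Cd3e fell by 0.36 on the log2 scale (limma adjusted p = 0.000608). In such bulk samples fewer cells of a type and less RNA per cell cannot be told apart.

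Markers of 6 other cell types were examined in the same way. Of 8 fibroblast markers 2 were tested and Pdgfra rose (0.149 to 1.16 FPKM in the means), while Col3a1 was at 0. The other, Col1a2, had means of 0.404 without and 0.607 FPKM with NaAc and no overlap between groups. It was not called, but was called in 3 alternatives. Of 8 endothelial markers only Pecam1, which T cells also carry, was tested, and it rose from 7.50 to 11.3 FPKM, while Emcn was at 0. Of 8 neutrophil markers only S100a8 was tested, and it rose from 0.398 to 2.94 FPKM, while S100a9 was at 0. Of 9 macrophage markers 3 were tested and Lyz2 rose, a call lost in 8 of 21 alternatives, while C1qb was at 0. Of 6 B cell markers 2 were tested and of 6 platelet markers 4, and in each list 0 were called by limma, 0 by voom and 0 passed an unadjusted p of 0.05. Cd79b, a B cell marker, was called higher in 4 alternatives, at a log2 fold change of 0.38 in the fit without replicate 1 of both groups. The 4 platelet markers, Pf4, Ppbp, Itga2b and Gp1ba, had means between 2.85 and 7.89 FPKM in both groups, while Gp1bb was at 0. Summed FPKM of the fibroblast list was 1.07 to 1.49 without and 2.73 to 3.81 with NaAc, that of the endothelial list 7.49 to 8.34 and 11.4 to 13.0, and that of the neutrophil list 0.758 to 1.35 and 2.19 to 4.90. The last difference was that of S100a8 alone, since the other 7 neutrophil markers together had means of 0.633 without and 0.417 FPKM with NaAc, with overlapping groups. Pdgfra, Col1a2 and S100a8 passed the filter only through the NaAc samples.

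Set against the summed epithelial markers, 3 genes had ratios that overlapped between groups and 5 had ratios that did not. The FPKM of Anxa1 was 0.0683 to 0.0966 per unit of that sum in CD8+4T1 and 0.0842 to 0.157 in CD8+4T1+NaAc, and that of Cav2 was 0.0221 to 0.0340 and 0.0148 to 0.0271. Those of Cavin2 were 0.00287 to 0.0136 and 0.00195 to 0.00614. Those of Cavin1 (0.562 to 0.929 and 0.169 to 0.390), Ehd2 (0.122 to 0.173 and 0.0468 to 0.0714), Cavin3 (0.0627 to 0.108 and 0.0201 to 0.0304), Anxa3 (0.0651 to 0.101 and 0.0388 to 0.0535) and Anxa2 (8.19 to 14.9 and 0.798 to 2.09) were lower with NaAc in every sample. This pattern rests on Krt8, Krt18 and Lcn2. Against the sum of the other 15 markers, a choice made after the data were seen, the ratios of Cav2, Ehd2, Anxa1 and Anxa3 were higher with NaAc in every sample, that of Anxa2 was lower, and those of Cavin1, Cavin2 and Cavin3 overlapped. The FPKM of Anxa1 was then 0.158 to 0.291 per unit without and 0.778 to 1.12 with NaAc, and that of Ehd2 0.308 to 0.378 and 0.394 to 0.552. These ratios rest in part on Krt17, which had a mean of 3.59 of the 7.38 FPKM of this sum in CD8+4T1. Krt17 was lower with NaAc, at 2.11 FPKM, which raises the ratios there. Ratios without Krt17 were not computed. Which cells the RNA of these genes came from was not tested.

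Within the NaAc group the sum of epithelial markers ran, from high to low, through replicates 2, 4, 3, 1 and 5. Cavin2 ran through 4, 3, 1, 5 and 2, so that the sample with the highest sum was its lowest, and Anxa2 through 4, 5, 2, 3 and 1. Ehd2, Anxa3 and Cavin3 ran through 2, 4, 3, 5 and 1, and Cav2 and Anxa1 through 2, 1, 4, 3 and 5. Cavin1 ran through 1, 2, 3, 4 and 5, an order of its own, and it differed less between samples than the sum did, by 1.19 times between the extremes against 2.57 times. NaAc replicate 2 was the highest of its group for 5 of the 8 genes other than Cav1. These are orders of 5 samples and are given as a description.

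**Figure D4:**
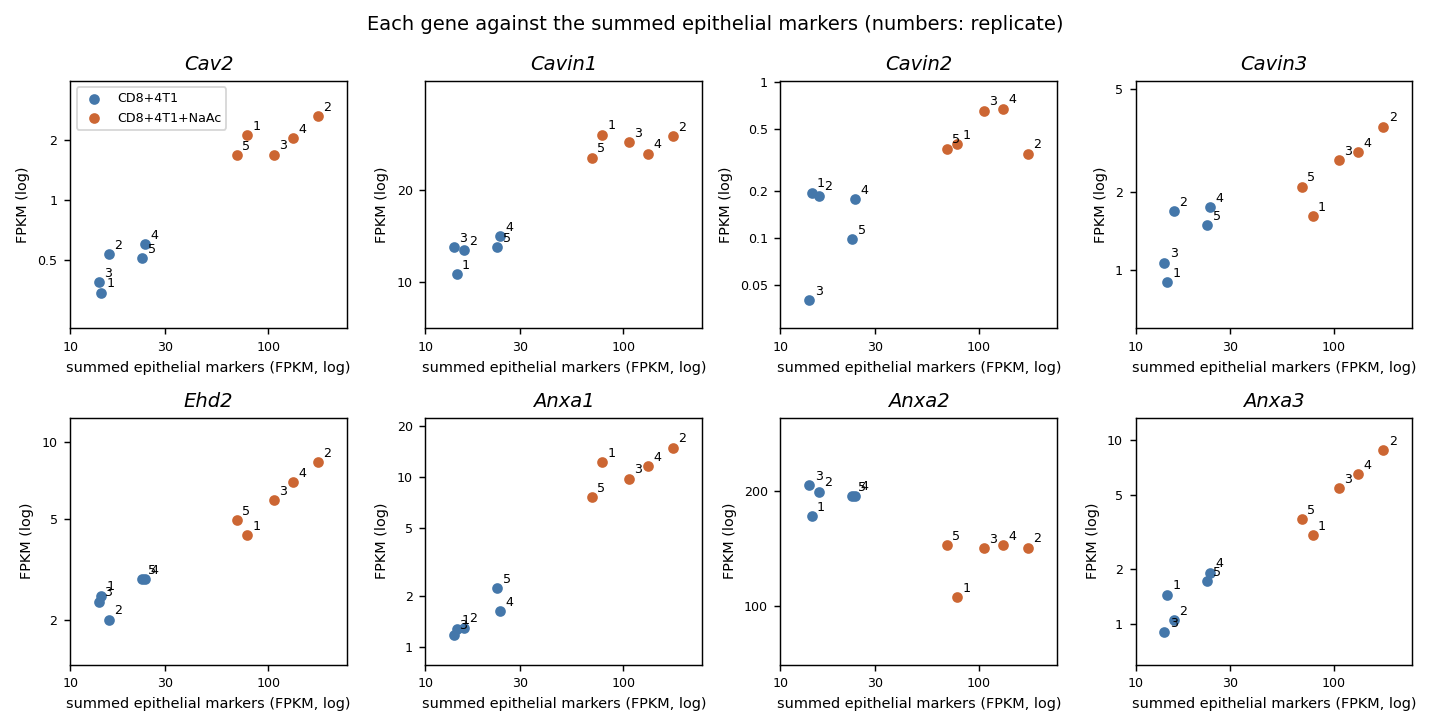
FPKM of 8 of the genes (vertical axis, log scale) against the summed FPKM of 18 epithelial markers (horizontal axis, log scale) in the 10 samples, numbered by replicate. The sum lies between 14.0 and 23.8 in CD8+4T1 and between 69.2 and 178.1 in CD8+4T1+NaAc, with Cavin1 nearly level within the NaAc group and Anxa2 lower there than in CD8+4T1.

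Last, the genes were sought whose pattern over the 10 samples was most like these. Likeness was the root mean square difference between standardized log2 values, over 11635 protein-coding genes, and it rests on the same contrast, so it is a description. The 5 genes nearest to the mean profile of the 4 tested caveolar genes were Lcn2 (0.0938), a secreted lipocalin, Myo1d (0.101), a class I myosin, Fmnl2 (0.107), a formin, Nos2 (0.108), the inducible nitric oxide synthase, and Apol9a (0.111), whose near-identical copies could share its reads. The median over all genes compared was 1.31. Lcn2 is also one of the epithelial markers, and with Krt8 and Krt18 it made up most of their sum. Myo1d, Fmnl2 and Apol9a had CD8+4T1 means of 0.137, 0.476 and 0.193 FPKM. They passed the filter on low values only through the NaAc samples, as did Cav2 in the profile itself. In the mean profile of the 3 annexins Anxa2 moves against Anxa1 and Anxa3, so their profiles partly cancel. That mean was not standardized again and is flatter than any single gene, so no gene could come near it. The smallest differences were those of 2410002F23Rik (0.546), Prdx4 (0.553), Abr (0.554), Emilin1 (0.555) and Gna12 (0.555), against a median of 1.01. Nothing is read from these names.

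With the group means subtracted, so that the acetate contrast no longer counted, the nearest to the caveolar profile were Apol9a (0.254), Gpsm2 (0.262), a regulator of spindle orientation, Mmp14 (0.270), a membrane-bound metalloprotease, Plac9 (0.283) and Padi3 (0.288), a peptidylarginine deiminase, against a median of 1.19. Nearest to the annexin profile were Chil1 (0.296), a chitinase-like protein, Wfdc2 (0.345), Gna12 (0.351), Bod1 (0.356) and Stx3 (0.359), a syntaxin, against a median of 1.12. Apol9a, Plac9, Padi3, Chil1 and Stx3 had CD8+4T1 means of 0.193, 0.151, 0.178, 0.253 and 0.447 FPKM. They passed the filter only through the NaAc samples, and their differences within CD8+4T1 rest on low levels.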

How the data were processed

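RNA of purified CD8+ T cells was sequenced in 10 samples, 5 per group, grouped by their labels. The authors deposited FPKM for each sample. An other deposited column, which is not normalized, gives gene length. The submitters' processing notes name fastp, HISAT2 2.0.5, StringTie 1.3.3b and featureCounts 1.5.0-p3, and the methods name DESeq2 for the group comparison. The genome build and the strand setting are not given in the sources used here, so positions are as the deposited table lists them. Promoters come from RefSeq, build GRCm38.p6. The listed starts of Cav1 and Cav2 equal the ends of their promoter windows. The listed positions of the other genes with a window are not those of GRCm38, so their promoters cannot be placed on them.

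FPKM are not counts, so limma 3.58.1 (trend, robust) in R 4.3.3 was fitted to log2(FPKM + 0.1) for genes whose mean reached 0.5 FPKM, with p-values adjusted over all 15710 genes tested. FPKM times gene length gave whole fragments (within 0.1) in each sample, at most 17269435 in the listed genes, and these were used with voom as an alternative. The interval for Cav1 is exact and binomial. The main limma fit was checked on simulated data.

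The members and lists were chosen with earlier results of these data known. The genes named are the 9, those of the lists (first those called with the largest log2 fold change, up to 4 a list, and those at 0) and the 5 protein-coding genes nearest in profile, before and after subtracting group means. Alternatives were pseudocounts of 1 and 0.01, no filter or a mean of at least 5 FPKM, scaling to the same total or by median ratios, limma with neither trend nor robust moderation, voom, an adjusted p under 0.01, protein-coding genes alone, the replicate number as a block, each sample left out in turn, and replicate 1 of both groups left out.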

Additional observations from a re-analysis of the deposited data

Results flagged for a closer look

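Anxa2 in CD8+4T1+NaAc replicate 1 lay far from the other 4 samples of its group, at 105.5 FPKM. On the log2 scale its gap to the nearest sample was 0.934 of the range of the group, above Dixon's 95% limit of 0.71 for 5 samples. It was the 1 such value among 20 groups of values checked, in which chance gives about 1. The same sample had the fewest genes above 0 of all 10, at 20233. Without it the log2 fold change of Anxa2 was -0.43 in place of -0.52.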

How the results depend on the processing

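No log2 fold change of the 7 tested genes changed sign under any alternative run. Those that moved by more than the spread between replicates were Cav2 (1.04 with a pseudocount of 1 and 2.19 with voom), Anxa1 (2.27 with a pseudocount of 1), and Cavin1 and Anxa2 after rescaling to the same total (1.33 and -0.34). Over all genes a mean of at least 5 FPKM gave 3733 calls (1257 higher), an adjusted p under 0.01 gave 3702 (1832 higher, 1870 lower), and rescaling to the same total gave 4918 higher and 1386 lower. A mean of at least 5 FPKM tests fewer genes and left 2 of the caveolar and annexin genes called higher, 3 other caveolae genes, 1 annexin partner, 3 epithelial markers higher and 0 lower, and 1 gene of the 6 smaller marker lists. Other caveolae genes called lower were 0 after rescaling and 2 without trend and robust moderation or with protein-coding genes alone. Other scaffold genes were 8 higher and 1 lower after rescaling and 2 lower with voom. T cell markers called higher were 5 after rescaling, 3 with voom, 3 without replicate 1 of both groups and 0 at an adjusted p under 0.01, and epithelial markers called higher were 8 without a filter. Slc9a3r1 went from -0.17 to 0.005 after rescaling. The cause of these shifts beyond fewer genes tested was not tested. With each sample left out in turn, 4924 to 6930 genes were called over the whole table, 0 to 3 T cell markers were called higher, and the 9 genes gave 6 higher and 1 lower each time. Depth limits Cav1 and Cavin2, which rest on at most 6 and 35 fragments in a sample.

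Adding the replicate number to the fit as a block gave 5399 calls, 2551 higher and 2848 lower, and 6 of the 9 genes were higher and 1 lower. Across genes, samples that share a number deviated from their groups with a correlation between -0.0283 and 0.0694, so no pairing was taken from the numbers.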
